A study of Mus musculus with 6 samples.

Results

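The interleukin-1 cytokine system was read at transcript level in renal tubular epithelial cells from injured mouse kidneys. It was taken as 10 genes chosen by symbol: the ligands Il1b, Il1a and Il18, the antagonist Il1rn, the receptors Il1r1 and Il1r2, the inflammasome genes Nlrp3 and Casp1, and the cytokines Tnf and Il6. All 10 were measured, each by 1 transcript cluster (the unit the array reports, close to 1 gene), among 19505 genes with a symbol. Where a gene had several clusters the one with the highest mean over the 6 arrays was to be taken, but that choice did not arise for these genes. The group of genes was proposed with lower Il1b and Tnf signals in these arrays already known, so the values below describe it and are not independent evidence for it.

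Collagenase released the tubular cells from kidneys that had undergone 30 min of ischemia followed by reperfusion for 24 h, an acute kidney injury that both groups shared. The mice of 1 group had received vehicle (labelled IR, 3 arrays). Those of the other had received PT2385 (labelled IRPT, 3 arrays), an inhibitor of hypoxia-inducible factor HIF-2α, in doses of 10 mg/kg. Injections were 16 h ahead of surgery and then 1, 8 and 20 h later. The protocol spells the injected compound PT2384. The labels were read as IR for vehicle and IRPT for PT2385. They give no strain, age or sex, and do not tie arrays to animals, so the p-values cover the spread between these samples alone, which may be technical. Uninjured kidneys were not analysed here.

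Some facts of the whole series touch every difference below. The Y-linked gene Eif2s3y had log2 signals of 9.09 to 9.28 with vehicle against 3.04 to 3.34 with PT2385, so an effect of PT2385 and a difference in sex between the groups cannot be told apart. Array medians were close, at 6.20 with vehicle and 6.24 to 6.25 with PT2385. The isolates carried the proximal tubule markers Lrp2 (11.12 to 11.94) and Slc34a1 (10.91 to 12.28). They also carried endothelial Pecam1 (8.13 to 8.66) and the pan-leukocyte marker Ptprc (6.49 to 7.55), so they were not pure epithelium by these markers. Ptprc was dimmer evidence. Only in vehicle replicate 1 did it exceed the 95th percentile of the negative control rows, a rough gauge of background (7.13 to 7.25).

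IL-1β and IL-1α are secreted cytokines that signal through the receptor encoded by Il1r1. The product of Il1rn blocks that receptor, and the product of Il1r2 binds the ligands without signalling. IL-1β and IL-18 are made as inactive precursors and cut by caspase-1, which is activated on an inflammasome such as the one built on NLRP3. In the injured kidney these cytokines, TNF and IL-6 are known as products of infiltrating and resident leukocytes, and some of them also of tubular cells.

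The sequences upstream of Il1b and Tnf are shown because these 2 genes alone of the 10 passed the test between the groups. They are the 250 bases before the start site in RefSeq (GRCm38.p6), both from the minus strand and written 5′ to 3′ along the gene. For Il1b the window was chr2:129371140-129371389 and for Tnf chr17:35202008-35202257. Capitals mark matches to TATAAA, the TATA box core, and to GAGGAA (printed here as its reverse complement), the core bound by the myeloid factor PU.1.
Il1b: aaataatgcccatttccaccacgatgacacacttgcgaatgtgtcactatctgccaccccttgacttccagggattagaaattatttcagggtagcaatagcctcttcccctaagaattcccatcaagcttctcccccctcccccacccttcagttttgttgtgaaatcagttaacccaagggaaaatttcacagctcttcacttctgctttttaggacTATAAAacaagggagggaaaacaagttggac
Tnf: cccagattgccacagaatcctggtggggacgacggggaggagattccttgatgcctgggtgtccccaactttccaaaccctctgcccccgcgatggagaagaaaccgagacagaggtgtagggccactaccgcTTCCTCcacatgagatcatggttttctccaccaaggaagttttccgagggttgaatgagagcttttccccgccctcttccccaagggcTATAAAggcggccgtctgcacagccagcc

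The TATAAA match began 31 bases before the start site in Il1b and 29 bases before it in Tnf. Of 32851 RefSeq windows of this length 12.4% held TATAAA on either strand and 23.3% held GAGGAA. The Il1b window held no GAGGAA, and the TATAAA and GAGGAA matches in the Tnf window did not overlap. The NF-κB consensus (7.25% of windows), the C/EBP letters TTGCNNAA (9.56%), the AP-1 letters TGANTCA (6.75%) and the hypoxia response cores ACGTG (16.6%) and GCGTG (28.2%) had no match on either strand in the windows of Il1b or Tnf. That says only that these letters are not in these 250 bases. Among the other genes, the Il6 window held an NF-κB consensus 44 bases before the start, a TTGCNNAA and a TGANTCA, and the Il1a window held TATAAA 32 bases before the start, a GAGGAA and a TGANTCA. An NF-κB consensus was also found in 1 window each of Il1r1 and Nlrp3, a TTGCNNAA in Il1r1 and a TGANTCA in Il1rn. GAGGAA was also found in windows of Nlrp3 (3 matches) and Casp1 (1), and TATAAA in that of Il18, 175 bases before the start on the opposite strand. The hypoxia core ACGTG was found in windows of Il1r2 (6 matches, some of which overlap on opposite strands), Casp1 (2), Il1r1 (1) and Nlrp3 (1), and GCGTG in windows of Il1r2 (2), Il1r1 (1) and Il1rn (1).

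The comparison asks which of these transcripts differed between the PT2385 and vehicle groups in the injured tubular isolates. As the Y-linked signal showed, treatment and sex cannot be told apart in any such difference. Tnf and Il1b fell in the PT2385 group and passed the threshold, an adjusted p under 0.05 over all 22206 clusters in limma. The other 8 genes did not pass, and 0 were higher past it. Of all clusters 0.829% passed, 0.495% lower and 0.333% higher. Of the 10 genes 8 had a negative difference, where 46.5% of all clusters had one. Their median difference was -0.34 on the log2 scale, against 0.02 over all clusters. In 4 genes, Il1b, Tnf, Il18 and Il6, every PT2385 array lay below every vehicle array, a pattern that 9.13% of all clusters showed. Of these, Il6 had values around or under the negative control medians.

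**Figure D1:**
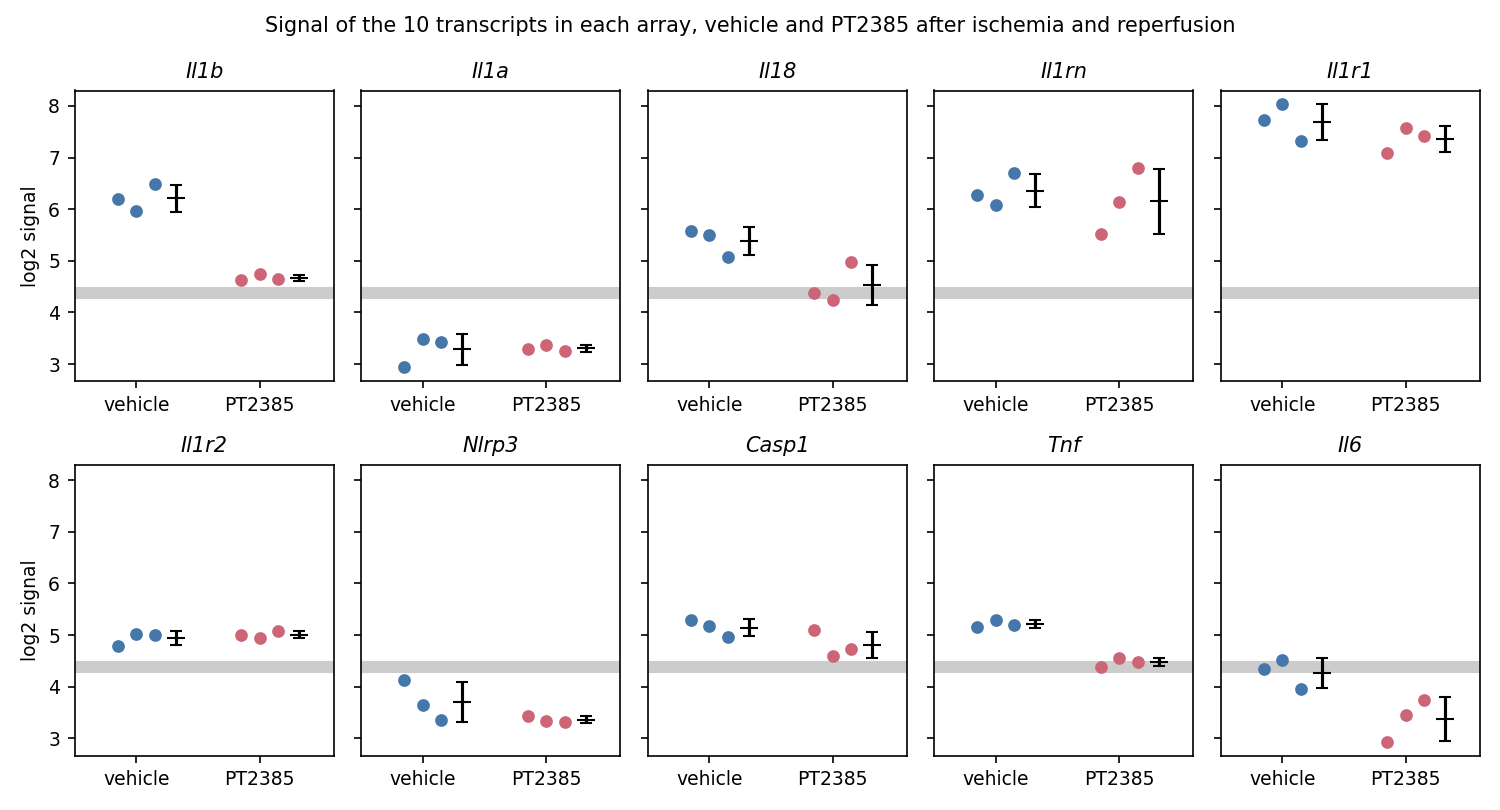
Log2 signal (vertical axis) of the 10 transcripts in each vehicle array (blue) and PT2385 array (red), with replicates 1 to 3 from left to right, the group mean and its SD in black, and the range of the 6 array medians of the negative control rows (4.28 to 4.47) in grey. The PT2385 points of Il1b lie between 4.63 and 4.74, below all vehicle points, while Il1a, Nlrp3 and most Il6 points lie under the grey band.

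Among the ligands, Il1b (cluster TC0200004602.mm.2, chromosome 2) had log2 signals of 6.19, 5.97 and 6.49 with vehicle, against 4.63, 4.74 and 4.64 with PT2385. The groups were separated by 1.23 between the lowest vehicle and the highest PT2385 array, and the PT2385 arrays lay within 0.11 of each other. Il1b fell by 1.55 (SE 0.14, 95% interval -1.86 to -1.24), which is a signal 2.92-fold higher in the vehicle group, with adjusted p = 0.00179 in limma. The PT2385 arrays differed from the vehicle mean by -1.59 to -1.48. The array holds 5222 negative control rows, a rough gauge of background. The vehicle signals of Il1b exceeded 83.2% to 89.7% of them and the PT2385 signals 55.9% to 59.8%, so the PT2385 signal was near the background and the difference can be understated.

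Il1a, the other IL-1 receptor agonist, starts 61.2 kb from Il1b on the same chromosome and strand. Its signals were 2.94, 3.49 and 3.43 with vehicle, against 3.29, 3.37 and 3.25 with PT2385. The groups overlapped, and all 6 values lay under the negative control median of their array. A difference in Il1a (0.02, 95% interval -0.32 to 0.35) was not detectable on this array. The fall of Il1b was therefore measured without a readable value for its neighbour.

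Il18, which encodes the second caspase-1 substrate, had 5.58, 5.50 and 5.07 with vehicle, against 4.37, 4.25 and 4.98 with PT2385. The groups did not overlap, but PT2385 replicate 3 came within 0.09 of the lowest vehicle array. The difference was -0.85 (SE 0.21, 95% interval -1.32 to -0.38, adjusted p = 0.130 in limma) and did not pass. Without PT2385 replicate 3 it was -1.07 with adjusted p = 0.0367, and with array weights -0.99 with adjusted p = 0.0424. Of the PT2385 values of Il18, 2 lay under their array's negative control median.

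Il1rn, the receptor antagonist gene, had 6.27, 6.09 and 6.71 in the vehicle arrays. The PT2385 arrays had 5.52, 6.14 and 6.79, which is the widest spread among the 10 genes (SD 0.64) and ran from below to above all vehicle arrays. Its difference was -0.21 (SE 0.29, 95% interval -0.88 to 0.46, adjusted p = 0.778 in limma). The sign rested on single arrays, with 0.11 without PT2385 replicate 1 and -0.53 without PT2385 replicate 3. PT2385 replicate 3 thus had the highest Il1rn signal of the 6 arrays beside an Il1b signal of 4.64.

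Among the receptors, Il1r1, which encodes the signalling receptor, was well above the controls, higher than 94.1% to 97.9% of the negative control rows. Its signals were 7.72, 8.03 and 7.33 with vehicle, against 7.08, 7.58 and 7.41 with PT2385. The groups overlapped, and the difference of -0.34 (SE 0.19, 95% interval -0.78 to 0.10, adjusted p = 0.457 in limma) did not pass. Il1r2, the decoy receptor gene, had 4.79, 5.02 and 5.01 with vehicle, against 5.0, 4.94 and 5.08 with PT2385. The groups overlapped, with a difference of 0.07 (95% interval -0.17 to 0.30, adjusted p = 0.799 in limma). All its values were near the background, 0.32 to 0.80 above the negative control median of their array, so a fall in Il1r2 could be missed.

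**Figure D2:**
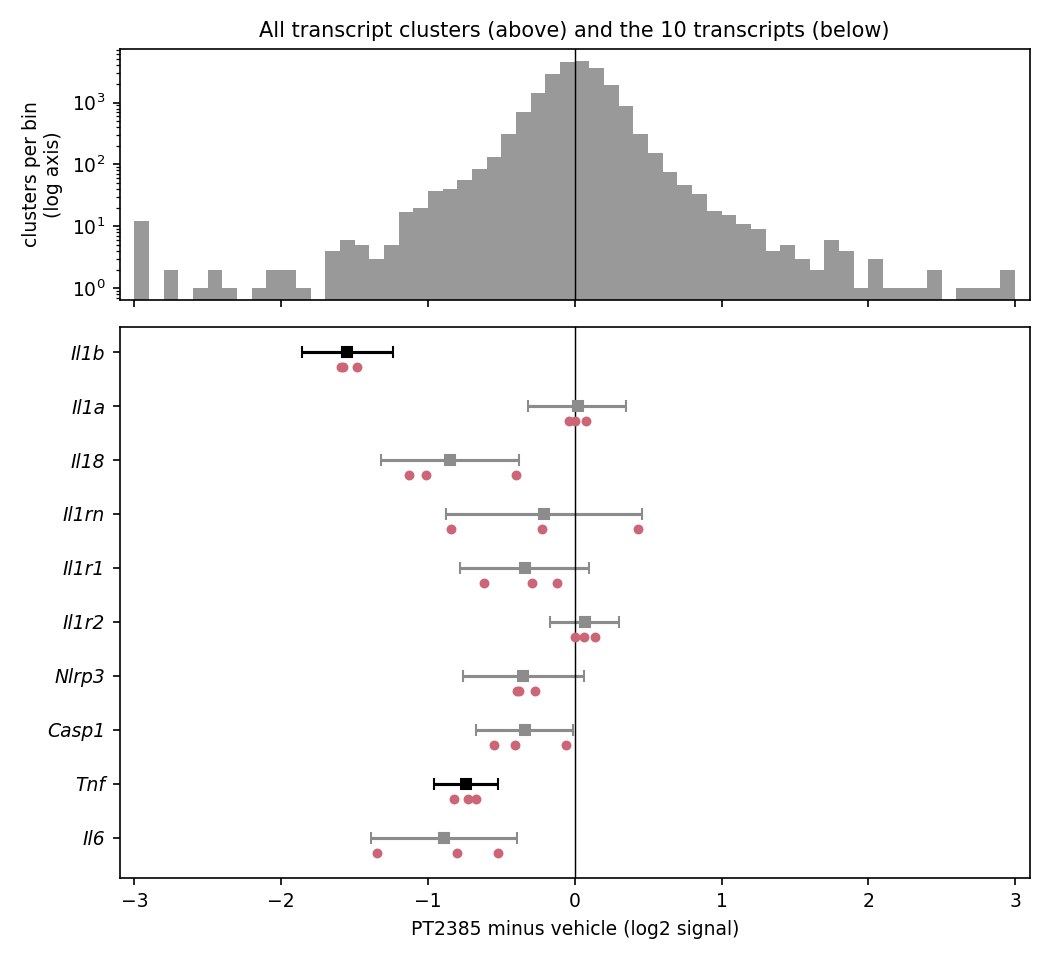
Upper panel, number of transcript clusters (log axis) per bin of 0.1 in PT2385 minus vehicle log2 signal, with values beyond the axis put in the end bins. Lower panel, the difference of each of the 10 transcripts with its 95% interval (black squares passed the threshold, grey did not), and below each the 3 PT2385 arrays minus the vehicle mean (red). The interval of Il1b runs from -1.86 to -1.24 and that of Tnf from -0.96 to -0.52.

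The inflammasome genes were dim. Nlrp3, the sensor gene, had 4.13, 3.64 and 3.36 with vehicle, against 3.44, 3.33 and 3.32 with PT2385, all under the negative control medians. Its groups overlapped, and a difference was not detectable on this array (-0.35, 95% interval -0.76 to 0.06). Casp1, the protease gene, had 5.29, 5.18 and 4.97 with vehicle, against 5.09, 4.6 and 4.74 with PT2385. Only PT2385 replicate 1 reached into the vehicle range. The difference of -0.34 (SE 0.15, 95% interval -0.67 to -0.01) had adjusted p = 0.337 in limma. Its unadjusted p was 0.0457, and among all clusters 14.5% were under 0.05 before adjustment.

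Tnf (cluster TC1700001954.mm.2, chromosome 17), which encodes tumour necrosis factor, had 5.15, 5.29 and 5.20 with vehicle, against 4.39, 4.55 and 4.48 with PT2385. The groups were separated by 0.60 and each spread by an SD under 0.1. Tnf fell by 0.74 (SE 0.10, 95% interval -0.96 to -0.52, adjusted p = 0.0151 in limma), a signal 1.67-fold higher in the vehicle group. The PT2385 values lay 0.00 to 0.22 above their array's negative control median, so this difference too can be understated. The vehicle values lay 0.68 to 0.86 above theirs and exceeded 66.3% to 70.9% of the negative control rows, so both groups were dim. All Il1b and Tnf values lay under the 95th percentile of the negative control rows of their array (7.13 to 7.25). The call was lost without vehicle replicate 2 (adjusted p = 0.074), vehicle replicate 3 (adjusted p = 0.061) or PT2385 replicate 2 (adjusted p = 0.0751).

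Il6, an acute phase cytokine gene, had 4.34, 4.51 and 3.95 with vehicle, against 2.92, 3.46 and 3.75 with PT2385. The groups did not overlap, by 0.20, and the difference of -0.89 (SE 0.22, 95% interval -1.39 to -0.39, adjusted p = 0.135 in limma) did not pass. Only vehicle replicate 2 lay above its array's negative control median, by 0.08. The Il6 values were therefore not told apart from background, which also limits the reading of its difference and non-overlap.

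**Figure D3:**
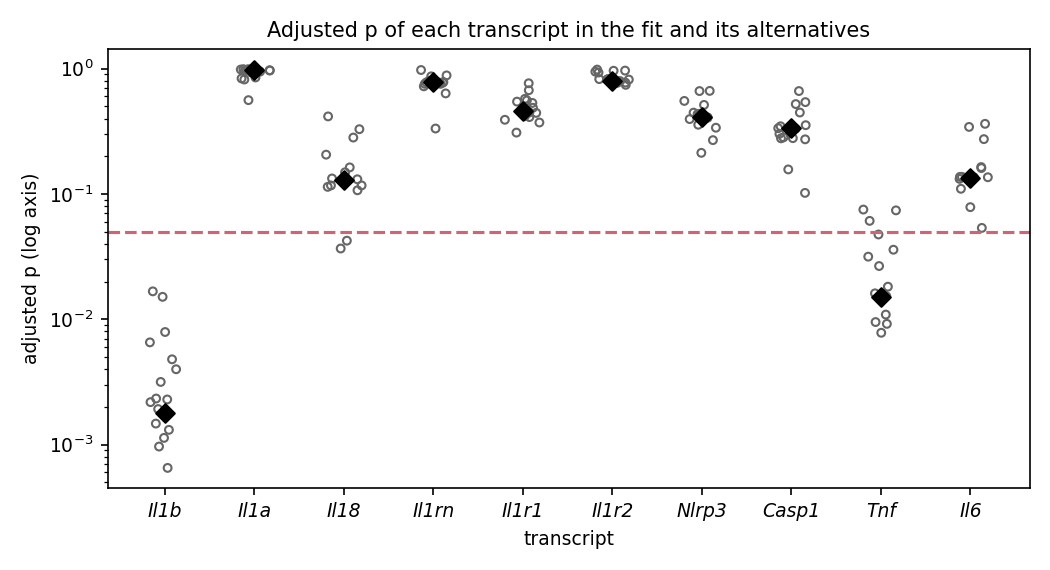
Adjusted p (log axis) of each of the 10 transcripts in limma as reported (black diamonds) and under each alternative that kept the transcript (open circles), with the threshold of 0.05 dashed. All 16 alternatives of Il1b lie under the line, between 0.000651 and 0.0167, and 12 of the 15 of Tnf do, between 0.0078 and 0.0751.

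Of 114 measured genes in 6 lists 0 passed over all clusters in limma, while 16 (14%) had an unadjusted p under 0.05, against 14.5% of all clusters. Negative differences were found for 76 of the 114, where 46.5% of all clusters had one. The median over the 114 was -0.08, against 0.02 over all clusters. The groups did not overlap in 13 lower and 3 higher genes, together 14%, where 20.7% of all clusters did not overlap. By direction, 9.13% of all clusters were lower without overlap and 11.6% higher.

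In the list of other IL-1 family ligands and receptors, 9 of 12 measured genes had a negative difference and 0 passed. The smallest p values were at Il1rl2, the receptor gene for IL-36 (-0.49, adjusted p = 0.286), Il1rap, which encodes the co-receptor of Il1r1 (-0.30, adjusted p = 0.393), and Il18r1, an IL-18 receptor gene (-0.26, adjusted p = 0.473), all in limma. Of the 12 genes of IL-1 receptor signalling 10 were negative and 0 passed. Irak2, a kinase gene of the receptor complex, had 7.54, 7.64 and 7.66 with vehicle, against 7.39, 7.27 and 7.30 with PT2385, a difference of -0.30 (adjusted p = 0.212 in limma). Tollip, an inhibitor gene of this signalling, had -0.21 and Peli1, a ubiquitin ligase gene, had 0.21.

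Of 23 other inflammasome sensors, adaptors and effectors 15 were negative and 0 passed. Gsdme, which encodes a pore-forming gasdermin, had -0.44 (adjusted p = 0.147 in limma). The deubiquitinase gene Brcc3 had -0.27 and the NLRP3-binding kinase gene Nek7 -0.24. These 3, picked by their small p, were the only genes of the 23 lower without overlap, and 0 were higher. Of all clusters 9.13% were lower without overlap and 11.6% higher. Of 22 other genes of TNF signalling 14 were negative and 0 passed. The ligand gene Tnfsf14 was positive (0.38, adjusted p = 0.161 in limma), while the deubiquitinase genes Cyld (-0.47) and Otulin (-0.55), which restrain TNF signalling, were negative.

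Of 15 other IL-6 family genes 11 were negative and 0 passed. The cytokine gene Clcf1 had 6.73, 7.05 and 6.65 with vehicle, against 5.74, 6.20 and 6.26 with PT2385 (-0.74, adjusted p = 0.0994 in limma). The groups of Clcf1 did not overlap. Of the 15 genes 2 were lower without overlap and 1 higher, against 9.13% and 11.6% of all clusters. The cytokine gene Lif had -0.94 (adjusted p = 0.249 in limma) with overlapping groups, and the feedback inhibitor gene Socs1 had 0.25.

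Of the transcripts that IL-1 and TNF are known to induce 17 of 30 were negative, with a median of -0.07, and 0 passed. The matrix protease gene Mmp9 had 4.74, 5.13 and 4.89 with vehicle, against 4.19, 4.31 and 4.34 with PT2385 (-0.64, adjusted p = 0.0575 in limma). The growth factor gene Csf1 had -0.52 (adjusted p = 0.0716 in limma) and the prostaglandin synthase gene Ptgs2 -1.34 (adjusted p = 0.182 in limma). In these 3, picked by their small p, the groups did not overlap. They were the only genes of the 30 lower without overlap, and 1 was higher. Of all clusters 9.13% were lower without overlap and 11.6% higher.

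**Figure D4:**
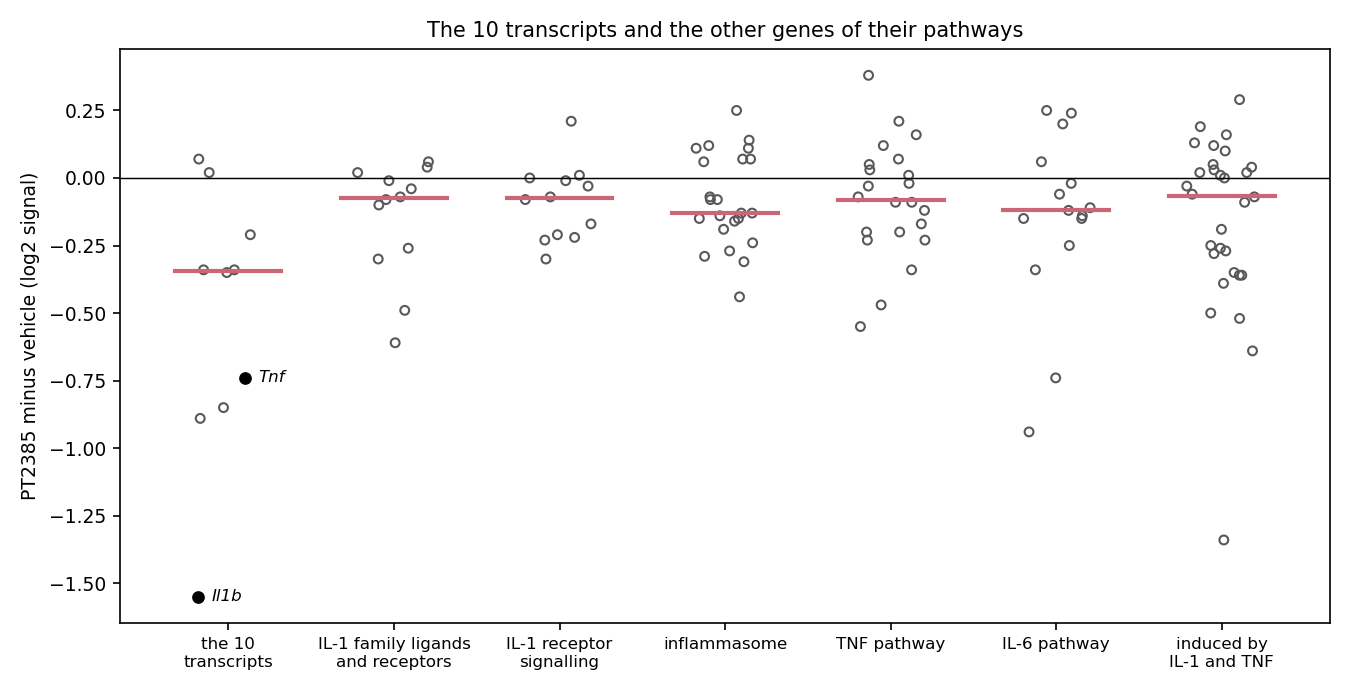
PT2385 minus vehicle log2 signal (vertical axis) of the 10 transcripts and of the measured genes in 6 pathway lists, 1 point a gene, filled where it passed the threshold, with the median of each set as a red line. The list medians lie between -0.13 and -0.07, that of the 10 transcripts at -0.34, and only Il1b and Tnf are filled.

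Profiles over the 6 arrays were compared by the root mean square difference between log2 signals, each gene centred on its own mean, over 18468 other named genes. The rule used the same contrast, so this is a description. The genes nearest to Il1b were the cytochrome P450 gene Cyp4b1 (0.144), Nat8f2 (0.209), the carboxypeptidase gene Cpe (0.252), Tc2n (0.264) and Erc2 (0.27). Cyp4b1 had 11.88, 11.81 and 12.01 with vehicle, against 10.45, 10.25 and 10.13 with PT2385. The genes nearest to Tnf were Gk5 (0.0496), the steroid dehydrogenase gene Hsd17b2 (0.0719), Klrg2 (0.0865), Mmp9 (0.0919) and the lysosomal sulfatase gene Galns (0.0955). Neither Il1b nor Tnf was among the 5 nearest to the other (0.442). The measure keeps the size of a difference, which was -1.55 for Il1b and -0.74 for Tnf, so this says nothing of the shape of their profiles.

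Leukocyte markers are given beside these results because leukocytes are known sources of Il1b and Tnf. In bulk isolates fewer cells of a type and less RNA per cell cannot be told apart. Of 18 measured macrophage and monocyte markers 12 had a negative difference, with a median of -0.07, and the summed signal of the list was 10.91 to 11.26 (log2) with vehicle and 10.69 to 11.0 with PT2385. In 4 of the 18, Lyz2, Itgam, Ccr2 and Aif1, every PT2385 array lay below every vehicle array, as in 9.13% of all clusters. The defining markers, the first of the list, Adgre1 (-0.05, SE 0.14), Csf1r (-0.09, SE 0.11) and Fcgr1 (-0.01, SE 0.09), did not pass. The lysozyme gene Lyz2, named because it alone of this list passed, had 8.95, 8.32 and 8.45 with vehicle, against 7.30, 7.34 and 7.52 with PT2385. Lyz2 fell by 1.19 (adjusted p = 0.0202 in limma), a call lost without vehicle replicate 3 (adjusted p = 0.0635) or PT2385 replicate 2 (adjusted p = 0.131). The other 3, named after their values were seen, did not pass in limma. The integrin gene Itgam had 7.41, 6.95 and 7.0 with vehicle, against 5.75, 6.18 and 6.57 with PT2385 (-0.95, adjusted p = 0.0974). The chemokine receptor gene Ccr2 had 6.97, 5.76 and 5.97 with vehicle, against 5.15, 4.91 and 5.19 with PT2385 (-1.15, adjusted p = 0.127), and Aif1 had -0.42 (adjusted p = 0.373). The 6 markers with a positive difference were C1qb (0.23), Ms4a7 (0.19), Ly6c2 (0.17), C1qc (0.15), Cd14 (0.14) and C1qa (0.11), each with overlapping groups.

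Of 16 measured neutrophil markers 11 were negative, with a median of -0.26, and 4 lay at or below the negative control medians in all arrays. In 6 of the 16 every PT2385 array lay below every vehicle array, as in 9.13% of all clusters, and 0 were higher without overlap. The positive ones were Camp (0.28), Ltf (0.18), Mmp8 (0.17), Padi4 (0.12) and Itgb2l (0.00). The summed signal was 9.29 to 9.48 with vehicle and 8.70 to 9.09 with PT2385, so the groups did not overlap. That sum is weighted to the brightest markers. The receptor gene Csf3r fell by 1.04 (adjusted p = 0.0326 in limma), from 6.50, 6.56 and 6.84 to 5.27, 5.65 and 5.87. That call was lost without any 1 vehicle array (adjusted p 0.0971 to 0.116) or without PT2385 replicate 2 (adjusted p = 0.15). The calprotectin genes S100a8 (-1.56, adjusted p = 0.0972) and S100a9 (-1.01, adjusted p = 0.213) did not pass in limma. S100a8 had 6.49, 6.21 and 6.07 with vehicle, against 3.94, 4.62 and 5.54 with PT2385, while Cxcr2 (-0.13) had overlapping groups.

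Of 8 pan-leukocyte markers 7 were negative and 0 passed, with a summed signal of 10.23 to 10.75 with vehicle and 10.16 to 10.33 with PT2385, which overlap. Ptprc, which encodes CD45, had -0.47 (adjusted p = 0.318 in limma), Cd52 -0.21, Coro1a -0.14 and Laptm5 -0.11. The part of these cells in the lower Il1b and Tnf signals was not tested. Markers of other cells showed 0 calls in limma, with 2 of 8 dendritic, 2 of 9 T and NK, 2 of 4 B, 2 of 7 endothelial and 1 of 7 fibroblast and pericyte markers negative. In 5 of the T and NK markers and 3 of the B cell markers all 6 values were at or below the negative control medians. Among markers of the tubule itself 8 of 8 for the collecting duct were positive, with a median of 0.50, and 7 of 8 for the loop and distal tubule, with a median of 0.96. The groups did not overlap, with PT2385 higher, in 6 and 7 of them, against 11.6% of all clusters. The growth factor gene Egf, named after its value was seen, had the highest difference (2.43, adjusted p = 0.147 in limma). The median of 11 proximal tubule markers was 0.03, and 0 members of these 3 lists passed. The part of these shifts in the Il1b and Tnf differences was not tested.

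**Figure D5:**
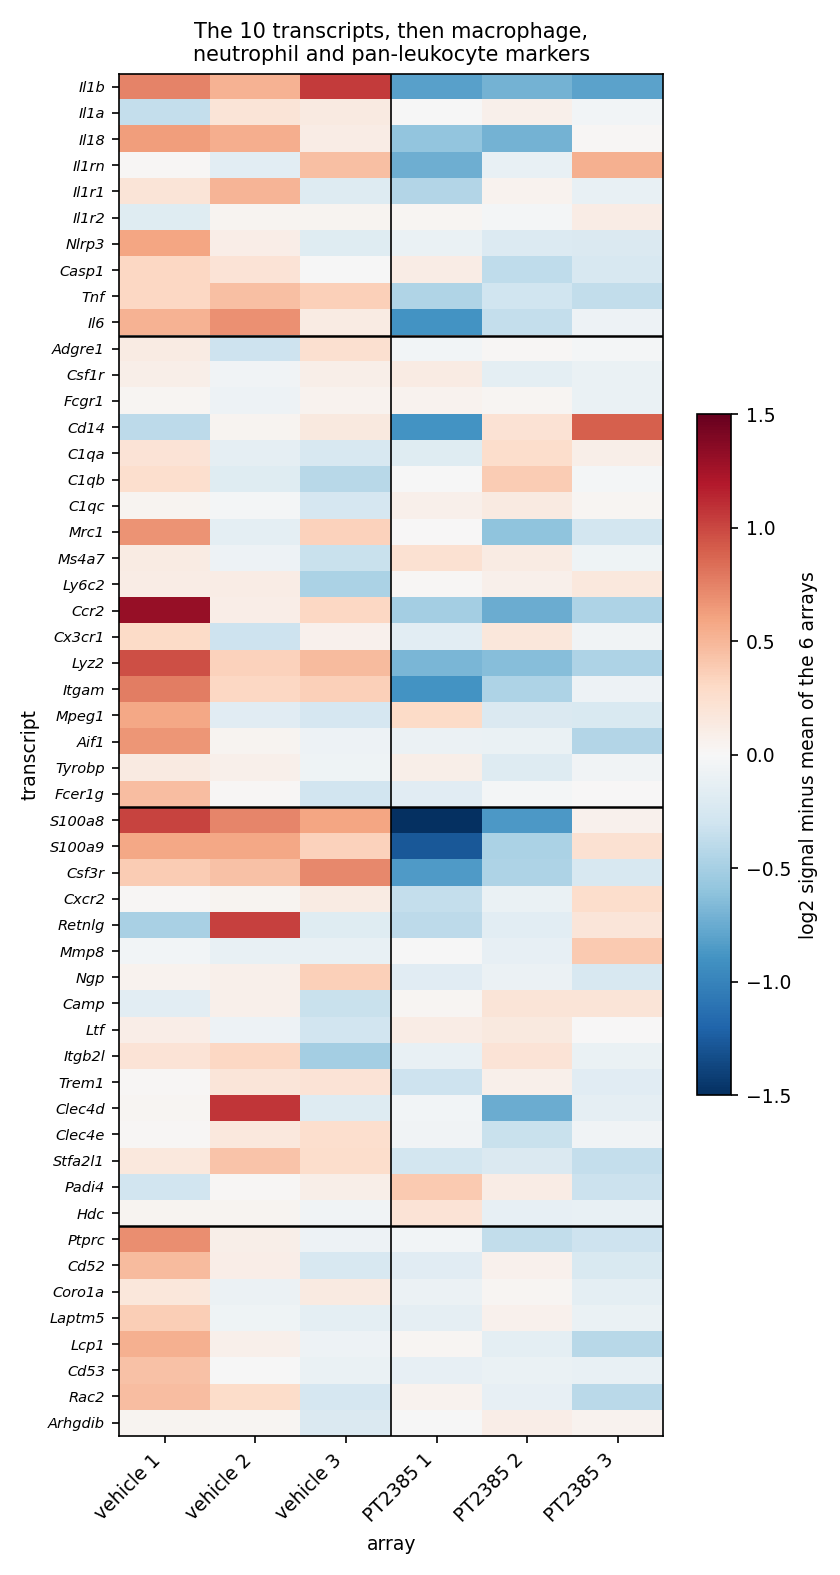
Log2 signal minus the mean of the 6 arrays (colour scale, red above and blue below) for the 10 transcripts and, under each black line, the measured macrophage and monocyte, neutrophil and pan-leukocyte markers, by array. Il1b and Tnf are blue in all PT2385 arrays, as are Lyz2, Itgam, Ccr2 and Csf3r, though Itgam is close to its mean in PT2385 replicate 3. The groups of Adgre1, Csf1r and Fcgr1 overlap.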

How the data were processed

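The authors deposited 1 table of log2 signals per transcript cluster and array. Per the submitters' processing notes the tool was Transcriptome Analysis Console, with no version. How signals were summarised, background-corrected and normalized is not given in the sources used here. RNA was labelled for Affymetrix whole-transcript arrays, per the labels' protocols.

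Of 28846 rows 6640 controls were left out, and all 22206 clusters were tested with limma 3.58.1 in R 4.3.3 (lmFit and eBayes, treatment as the only term, 2-sided, Benjamini-Hochberg adjusted p, threshold 0.05), which was tested on simulated data. Intervals are 95%, from the moderated variance. Symbols came from the platform annotation, and 3 older list symbols were replaced through RefSeq. Detection calls were not used. The 23 rows of background controls ran from 2.41 to 7.47, and the number of arrays limits the precision.

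Members, lists, tests and alternatives were chosen with earlier results of these data known. All 10 members were named, with up to 3 genes of smallest p per pathway list (or all that passed), the measured ones among the first 4 markers of the macrophage, neutrophil and pan-leukocyte lists (other cells mainly as counts), markers that passed, and the 5 genes of nearest profile to Il1b and Tnf. Some further markers were named after their values were seen. The alternatives tried were a replicate block, other scalings, dim filters, 1 cluster per gene, variance priors, array weights, omission of the X and Y chromosomes and of each array.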

Additional observations from a re-analysis of the deposited data

How the results depend on the processing

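Il1b kept its direction and its call in all 16 alternatives run (-1.67 to -1.41, adjusted p 0.000651 to 0.0167), and Tnf its direction in all 15 that kept it, with the call lost in 3. The count of the 10 genes past the threshold was 2. It was 1 with clusters of a mean signal of at least 5, a filter that removed Tnf, and 1 to 3 when single arrays were left out. It was 3, Il18 included, with array weights. The count over all clusters was 184. It was 456 with array weights and 42 to 179 when single arrays were left out, and median-centred arrays gave 57 higher and 135 lower calls in place of 74 and 110. Of the pathway genes 0 passed. The count was 1 with the replicate block (Ptgs2, adjusted p = 0.00702), 1 with median-centred arrays, quantile normalization or cyclic loess (Mmp9 in each, adjusted p 0.0409 to 0.0445), 1 with a trend and robust eBayes fit (Csf1, adjusted p = 0.044) and 4 with array weights (Mmp9, Csf1, Cyld and Clcf1). The causes of these changes were not tested, apart from the filter that removed Tnf.

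Same-numbered arrays had correlations of deviations from their group means of 0.138, 0.0252 and -0.0587, so the numbers were not taken as pairs. With the replicate block 178 clusters and 2 of the 10 genes passed. The exact permutation test of 3 against 3 cannot go below 0.1, the value it gave for Il1b, Tnf, Il18 and Il6, so it makes no call either way. No gene of the 10 had a second cluster to try. Dim signal limits Il1a, Nlrp3 and Il6 most, since their PT2385 values all lay under the negative control medians. It also limits other genes. The PT2385 values of Tnf lay 0.00 to 0.22 above those medians and those of Il1b 0.25 to 0.42, and 2 PT2385 values of Il18 lay under them.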
